A study of Mus musculus with 8 samples.

Results

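Cysteine is carried to the ribosome by transfer RNAs (tRNAs) whose anticodon is GCA, and the mouse nuclear genome holds an unusually large family of gene copies for them. These copies were followed in the small RNA of bone marrow-derived macrophages (BMDMs) kept with macrophage colony-stimulating factor (M-CSF) or deprived of it. Copies were taken as every feature of the nuclear tRNA class whose name gives Cys after the tRNA number. The rule found 57 copies among 429 nuclear tRNAs and 3514 features of all small RNA classes. All 57 were listed in the Ion Proton table and 56 in the SOLiD table, where chr6.tRNA1020 was not listed. All 57 carry the anticodon GCA.

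The cells were primary BMDMs of C57BL/6J mice (males of 10 weeks, per the study's methods), grown in medium conditioned by L929 fibroblasts, a source of M-CSF. M-CSF withdrawal lasted 36 h and controls received no treatment. The Ion Proton run gave 2 control and 2 withdrawal libraries. The SOLiD run gave single control and withdrawal libraries of total RNA, and another such pair of RNA selected at 25 to 40 nt. The study's methods call the 2 Ion Proton libraries of a condition biological replicates, and the labels name no mouse or culture for them.

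A tRNA is transcribed by RNA polymerase III, trimmed at both ends, given a CCA tail, heavily modified and charged with its amino acid. In stressed or dying cells, nucleases such as angiogenin can cut mature tRNAs in the anticodon loop and release fragments, and small RNA libraries read such pieces as well as fragments made in normal turnover. Small RNA reads on a tRNA gene therefore do not measure the intact tRNA, and near-identical gene copies can share reads. Here a read could be placed at up to 10 positions in the Ion Proton alignment, so copies are not independent measurements, and which copy gave a read is uncertain.

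All 57 copies matched a RefSeq tRNA gene of the same coordinates (GRCm38, symbols beginning n-TCgca). Chromosome 6 held 49 copies, chromosome 11 held 5, chromosome 9 held 2 and chromosome 17 held 1. On chromosome 6, 48 copies lay in a cluster of 229667 bp (6:48133937-48363603), with 20 on the plus strand and 28 on the minus strand. The remaining copy there, chr6.tRNA157 (6:47978997-47979068, plus strand), lay 154868 bp before the cluster. Of the 57 copies, 56 were 72 nt long and chr6.tRNA177 was 70 nt. In the GENCODE annotation, 7 copies lay within the body of the long noncoding RNA gene Gm16630 and 0 lay in an annotated exon. Levels per copy can therefore be compared without a correction for length.

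The mitochondrion encodes its own cysteine tRNA, mt-Tc, which reads the same codons in mitochondrial translation. Its sequence is printed as the one cysteine tRNA for which the count table gives letters, with the GCA anticodon (bases 29 to 31 of 66) in capitals. The gene lies on the mitochondrial chromosome at 5192 to 5257 of GRCm38, minus strand.
mt-Tc: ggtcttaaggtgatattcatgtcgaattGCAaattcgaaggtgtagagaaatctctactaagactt

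The libraries held between 4039837 and 12178454 reads on listed features. Nuclear tRNAs took 26.7% and 26.6% of reads in the Ion Proton controls and 47.1% and 44.7% after withdrawal, while miRNAs took 40.4% and 41.6% and then 30.0% and 30.3%. In the SOLiD total RNA pair, nuclear tRNAs took 10.2% in the control and 42.2% after withdrawal. Levels are given as counts per 1000000 (CPM) for Ion Proton and reads per 1000000 (RPM) for SOLiD. The summed level of 5 myeloid and blood miRNAs was 9851 and 10934 CPM in the Ion Proton controls and 8461 and 8776 CPM after withdrawal. In the SOLiD run only 3 of the 5 were listed, without miR-142a-3p and miR-142a-5p, so the sums of the runs cover different sets. The SOLiD sum was 25283 RPM in the control and 11599 RPM after withdrawal in total RNA, and 52997 and 34390 RPM in size-selected RNA. The RNA integrity number was 8.4 in the SOLiD total RNA control and 7.5 after withdrawal. The part of these differences in the results was not tested. The 2 erythroid and 2 epithelial miRNAs summed to at most 8.26 and 7.24 CPM in the Ion Proton libraries but to 2395 to 3991 and 4145 to 6426 RPM in all 4 SOLiD libraries. The epithelial miR-205-5p was not listed in the Ion Proton run and gave 4790 of the 5509 RPM in the SOLiD total RNA control. The other, miR-200c-3p, gave 2.97 to 7.24 CPM in Ion Proton and 572 to 840 RPM in SOLiD. The erythroid contrast rested on miR-451a, since miR-144-3p lay between 1.03 and 2.97 CPM or RPM in every library. Liver, muscle, neuron, fibroblast and lymphocyte sets were also higher in all 4 SOLiD libraries. The lymphocyte miR-150-5p, for example, gave 0 to 1.81 CPM in Ion Proton and 407 to 601 RPM in SOLiD. In these bulk libraries, fewer cells of a type and less RNA per cell cannot be told apart.

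Summed over copies, cysteine tRNA reads rose after M-CSF withdrawal in the Ion Proton libraries. The 4 libraries gave 608 and 642 CPM in the controls and 1657 and 1573 CPM after withdrawal, so that both withdrawal libraries lay far above both controls. The means were 625 ± 23.4 CPM (SD, n = 2) and 1615 ± 59.7 CPM (SD, n = 2). edgeR's quasi-likelihood test, fitted with the copies of each tRNA family summed, gave a log2 fold change of 1.57 ± 0.09 (SE) with an adjusted p of 0.00164. This value includes TMM factors, edgeR's scaling between libraries. With library totals in their place it was 1.37, equal to the log2 ratio of the 2 means. Among all 1659 features of that table, 7.47% were called higher. An exact permutation test of the summed CPM gave p = 0.333, the smallest that 2 libraries against 2 allow.

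The rise exceeded that of nuclear tRNAs as a whole. Cysteine copies took 0.228% and 0.241% of nuclear tRNA reads in the controls and 0.352% and 0.352% after withdrawal, a difference of 0.117 percentage points between the means (exact permutation p = 0.333, the smallest possible). With library sizes set to nuclear tRNA reads, the log2 fold change of the summed family was 0.58 (adjusted p = 0.00783, edgeR). The family stayed a small part of nuclear tRNA reads although it holds 57 of 429 gene copies. It ranked 21 and 20 of 51 tRNA families (isoacceptors) by summed CPM in the controls and 17 in both withdrawal libraries.

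**Figure D1:**
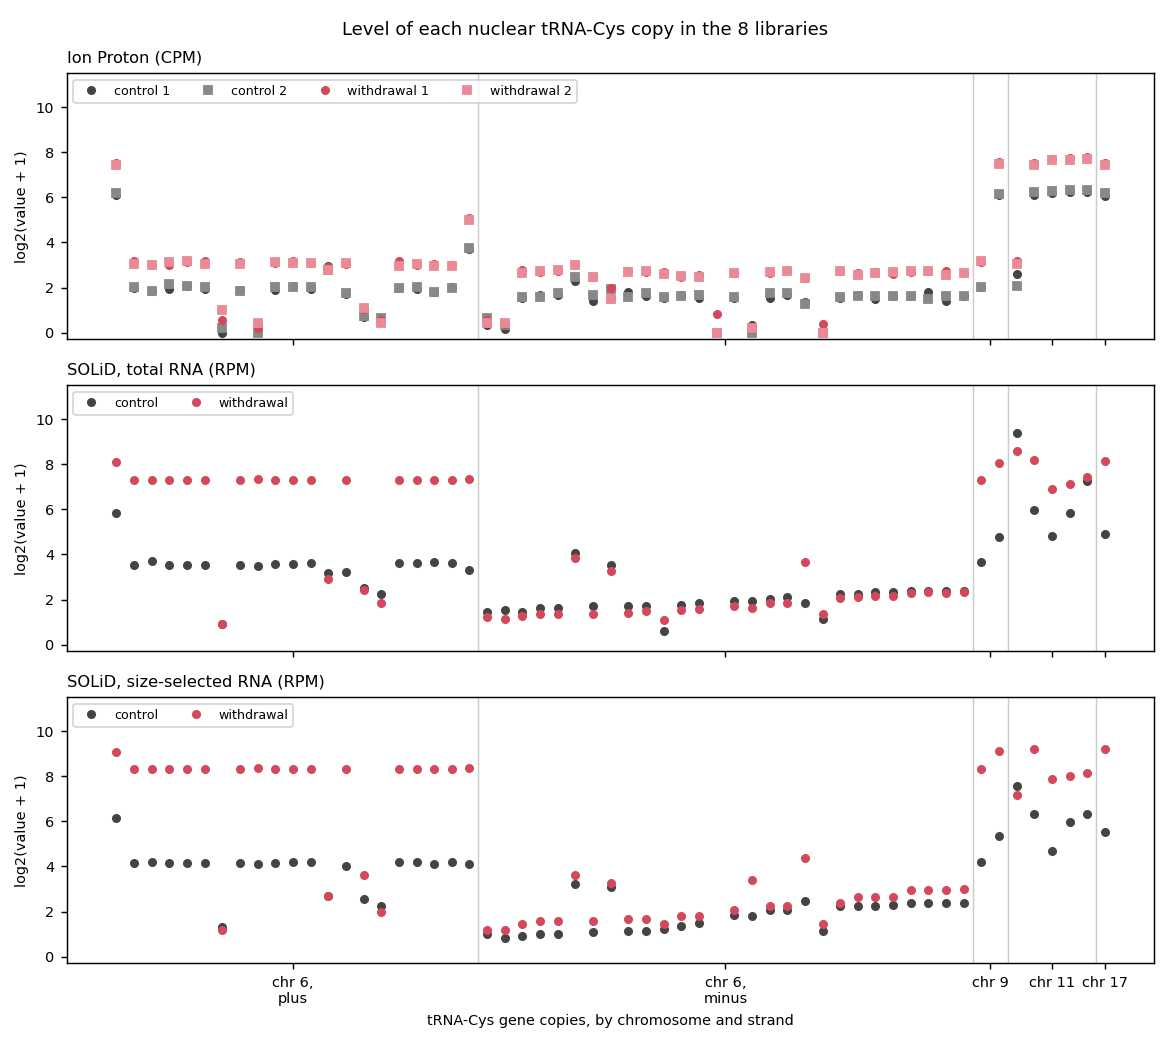
Level of each of the 57 cysteine tRNA copies as log2 of CPM (Ion Proton) or RPM (SOLiD) plus 1, with 1 point for each library and copies grouped by chromosome and strand and ordered by position. In the top panel 7 copies stand far above the rest and withdrawal points lie above control points on most copies. In the lower panels the plus-strand copies of chromosome 6 separate widely by treatment and the minus-strand copies do not.

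Copies fell into distinct levels in the Ion Proton libraries. Of the 57 copies, 8 averaged at least 10 CPM, and 7 of them were read far more than the rest: chr11.tRNA1432, chr11.tRNA1433, chr11.tRNA1442 and chr11.tRNA791 on chromosome 11, chr9.tRNA593, chr17.tRNA457 and chr6.tRNA157. These 7 lay on 4 chromosomes, on both strands, and together held 80.8% and 81.5% of cysteine reads in the controls and 82.8% and 82.4% after withdrawal. They carry the RefSeq symbols n-TCgca51 to n-TCgca57.

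The most-read copy was chr11.tRNA1432 (11:97988923-97988994, minus strand), with 75.4 and 79.4 CPM in the controls and 218 and 206 CPM after withdrawal. The groups did not overlap, and its log2 fold change was 1.504 ± 0.08 (SE, adjusted p = 0.00166, edgeR over 2029 features). The lowest of the 7, chr17.tRNA457 (17:71599271-71599342, plus strand), gave 65.3 and 71.6 CPM in the controls and 181 and 171 CPM after withdrawal. Neighbours in the order of the 7 were therefore hardly apart, and the controls of chr17.tRNA457 and chr11.tRNA1432 differed by less than the groups did. Log2 fold changes of the 7 lay between 1.37 for chr11.tRNA791 and 1.51 for chr11.tRNA1442, each with an adjusted p of at most 0.0020 in edgeR.

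The eighth copy, chr6.tRNA182 at the far end of the cluster (6:48356851-48356922, plus strand), stood between the levels, with 12.1 and 12.4 CPM in the controls and 32.7 and 30.7 CPM after withdrawal. Its log2 fold change was 1.42 ± 0.12 (SE, adjusted p = 0.0033, edgeR). Most other copies of the chromosome 6 cluster gave a few CPM each. Plus-strand cluster copies had medians of 2.84 and 2.99 CPM in the controls and 7.21 and 7.27 CPM after withdrawal, and minus-strand copies had 1.93 and 2.09 CPM and then 5.21 and 5.29 CPM. Both strands thus moved alike in the Ion Proton libraries.

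Of the 57 copies, 55 reached 5 reads over the 4 libraries and were tested, and 44 rose at an adjusted p under 0.05 (edgeR). Over all features tested, 15.7% were called higher. No copy was called lower by edgeR, DESeq2 or voom, and 46 copies, 0 of them lower, had an unadjusted p under 0.05 in edgeR. The share of all features at that unadjusted threshold was not counted. The median log2 fold change of the 55 copies was 1.39, against 0.08 over all features. Both withdrawal libraries lay above both controls for 49 of the 55 copies, against 33.4% of all features tested. The calls of the low copies rested on few reads: DESeq2, and edgeR without either withdrawal library, called 8 copies, in each case the 7 highest and chr6.tRNA182. With library sizes set to nuclear tRNA reads, those 8 rose and chr6.tRNA174 was lower.

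By chromosome, the calls were spread over the whole family. On chromosome 6, 16 of 21 plus-strand and 21 of 26 tested minus-strand copies rose, with median log2 fold changes of 1.39 and 1.38. On chromosome 11, 4 of 5 rose, as did both copies of chromosome 9 and the copy of chromosome 17. Chromosome 6 held 29.1% and 28.8% of cysteine reads in the controls and 27.3% and 27.6% after withdrawal, a difference of -1.48 percentage points between the means (exact permutation p = 0.333, the smallest possible). The groups did not overlap on this share, although the change was small. Chromosome 11 held 48.5% in both controls and 49.9% and 49.6% after withdrawal.

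Copies that did not pass the test differed among themselves. chr6.tRNA174 (6:48302459-48302530, plus strand) gave 6.70 and 5.85 CPM in the controls and 6.59 and 5.78 CPM after withdrawal, with overlapping groups and a log2 fold change of 0.03 ± 0.21 (SE, adjusted p = 0.934, edgeR). Likewise chr6.tRNA1026 gave 1.93 and 2.79 CPM and then 2.91 and 1.82 CPM. In chr6.tRNA1029, which gave 3.87 and 4.46 CPM in the controls and 7.05 and 6.94 CPM after withdrawal, the groups did not overlap (log2 fold change 0.80 ± 0.22 SE, adjusted p = 0.0622, edgeR). Others had almost no reads. chr6.tRNA170 gave 2, 0, 1 and 2 reads in the 4 libraries, chr6.tRNA167 gave 0, 1, 3 and 6, and chr6.tRNA1020 gave 0, 0, 5 and 0, so no Ion Proton fold is given for them.

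chr11.tRNA1444 (11:97769829-97769900, minus strand) was the one chromosome 11 copy with few Ion Proton reads. It gave 5.15 and 3.20 CPM in the controls and 7.97 and 7.27 CPM after withdrawal, with a log2 fold change of 0.91 ± 0.30 (SE, adjusted p = 0.0997, edgeR). The same copy was the most read in 3 of the 4 SOLiD libraries.

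**Figure D2:**
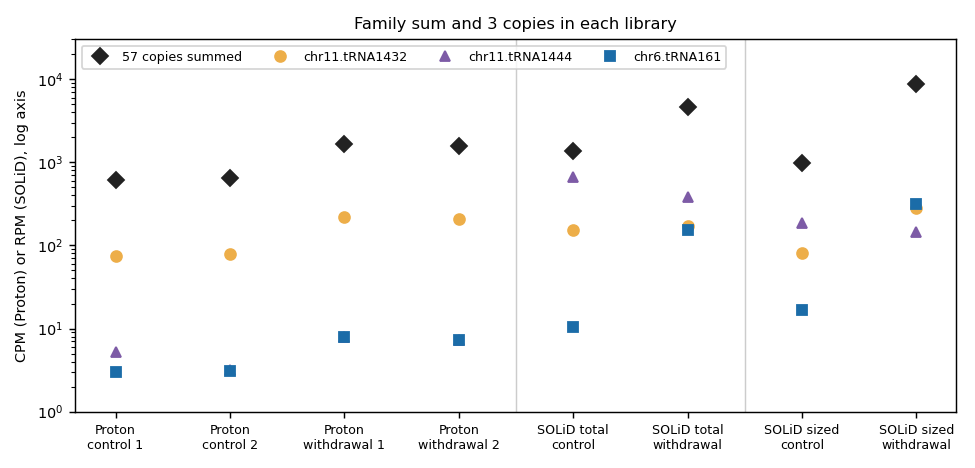
Summed level of the 57 copies (56 in the SOLiD libraries) and the level of 3 single copies in each of the 8 libraries, in CPM for Ion Proton and RPM for SOLiD on a log axis. The sum is higher after withdrawal in each of the 3 comparisons, whereas chr11.tRNA1444 is lower after withdrawal in both SOLiD pairs.

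In the SOLiD run the summed family was again higher after withdrawal, with 1 library on each side and no replicate. Total RNA gave 1363 RPM in the control and 4675 RPM after withdrawal, a log2 ratio of 1.78 (95% interval 1.74 to 1.81). RNA of 25 to 40 nt gave 967 and 8739 RPM, a log2 ratio of 3.17 (95% interval 3.14 to 3.21). These intervals are exact conditional binomial intervals on reads and cover counting error only. The 25 to 40 nt range holds cut tRNAs and shorter pieces, not intact tRNAs. Unlike in the Ion Proton run, the share of cysteine copies in nuclear tRNA reads was lower after withdrawal in total RNA, at 1.34% and then 1.11%, and higher in size-selected RNA, at 1.10% and then 2.11%.

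Copies differed from each other far more in the SOLiD run than in the Ion Proton run, and strand separated them. The 21 plus-strand copies of chromosome 6 together gave 245 RPM in the total RNA control and 2783 RPM after withdrawal (log2 ratio 3.4996, 95% interval 3.43 to 3.58). The 27 listed minus-strand copies there gave 95.8 and 91.3 RPM (log2 ratio -0.07, 95% interval -0.22 to 0.08). In size-selected RNA the plus-strand copies gave 355 and 5667 RPM and the minus-strand copies 77.9 and 130 RPM, with log2 ratios of 3.99 and 0.73. Chromosome 6 thereby went from 25.01% to 61.5% of cysteine reads in total RNA and from 44.7% to 66.3% in size-selected RNA, whereas in the Ion Proton libraries its share stayed between 27.3% and 29.1%.

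The plus-strand copies of the cluster were nearly equal to each other. After withdrawal, 16 of 20 lay between 155 and 160 RPM in total RNA and between 316 and 331 RPM in size-selected RNA. The first copy of the cluster, chr6.tRNA161 (6:48133937-48134008), gave 10.4 RPM in the total RNA control and 155 RPM after withdrawal, against 2.96 and 3.06 CPM and then 7.97 and 7.27 CPM in the Ion Proton libraries. chr9.tRNA592, also on a plus strand, matched this level with 11.6 and 156 RPM. Even chr6.tRNA170, which had at most 2 reads in any Ion Proton library, gave 10.2 and 160 RPM. The 4 plus-strand cluster copies outside this level, chr6.tRNA167, chr6.tRNA174, chr6.tRNA176 and chr6.tRNA177, gave between 0.903 and 6.49 RPM after withdrawal.

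The minus-strand copies were low and changed in order along the chromosome. Their median was 2.77 RPM in the total RNA control and 2.30 RPM after withdrawal, with 24 of 27 log2 ratios below 0. Each of these 24 had a 95% interval that spanned 0 (counting error only), such as -0.78 to 0.72 for chr6.tRNA1005. The share of all features below 0 was not counted. Their median log2 ratio was 0.18 over features with at least 5 reads in the pair. Levels were higher toward higher coordinates, from 1.23 RPM at chr6.tRNA1033 to 4.02 RPM at chr6.tRNA1005 after withdrawal, with a Spearman correlation of 0.65 between level and start over 27 copies. These copies share a library and may share reads, and the correlation is a description. In the Ion Proton libraries the same correlation over 28 copies lay between -0.02 and 0.10. Minus-strand copies apart from this order included chr6.tRNA1029 with 15.6 and 13.2 RPM, chr6.tRNA1026 with 10.4 and 8.62 RPM, and chr6.tRNA1015, which gave 2.60 RPM in the control and 11.8 RPM after withdrawal.

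**Figure D3:**
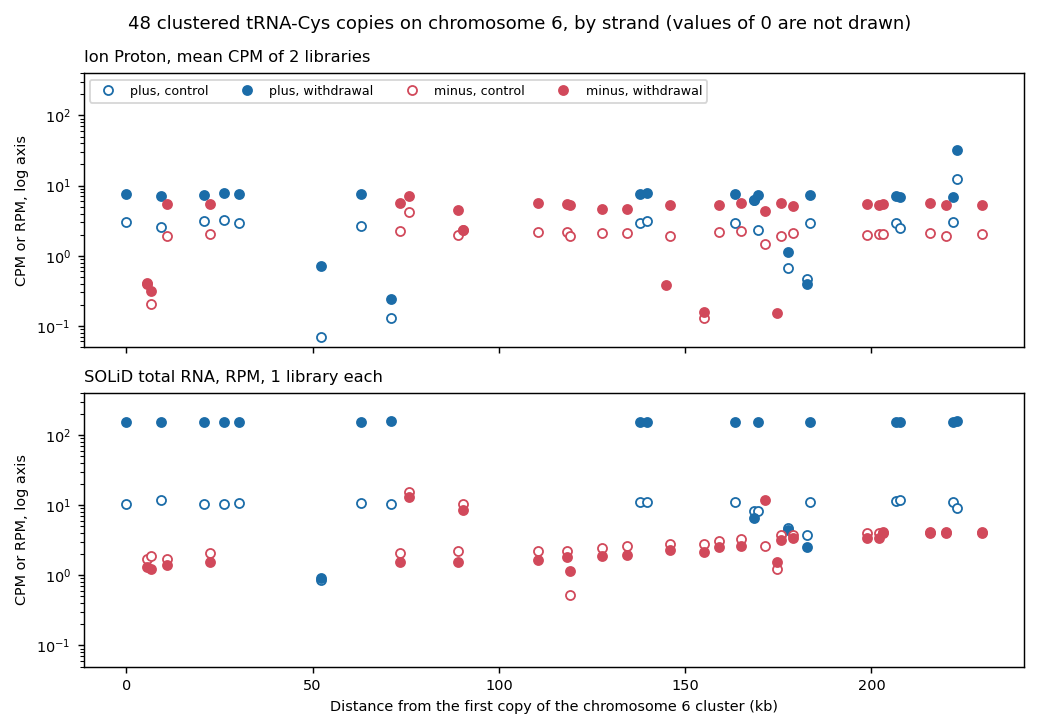
Level of the 48 cluster copies of chromosome 6 (47 in the SOLiD table) against distance in kb from the first copy, by strand, for the Ion Proton means (CPM, n = 2) and the SOLiD total RNA libraries (RPM), both on log axes with values of 0 left out. In the lower panel plus-strand copies after withdrawal form a line near 155 RPM while minus-strand copies stay at a few RPM and climb slightly from left to right.

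Other values moved beside these strand differences. Among the nuclear tRNAs of other families listed in both tables, median log2 ratios in SOLiD total RNA were 1.71 for 187 plus-strand and 1.64 for 179 minus-strand copies, against 3.68 for 25 plus-strand and -0.20 for 31 minus-strand cysteine copies. The 2 epithelial miRNAs, both detected, went from 5509 to 4405 RPM in total RNA and from 4145 to 6426 RPM in size-selected RNA, and the 2 erythroid miRNAs from 3229 to 2661 RPM and from 2395 to 3991 RPM. The erythroid sum was almost all miR-451a (3227 and then 2659 RPM in total RNA). The other erythroid miRNA, miR-144-3p, went the other way in total RNA, from 1.91 to 2.22 RPM. The liver, muscle, neuron, fibroblast and lymphocyte sums also fell in total RNA and rose in size-selected RNA. The lymphocyte sum, for example, went from 516 to 419 RPM and from 407 to 601 RPM. The shifts were thus not particular to the epithelial and erythroid sums. Only the myeloid and blood sum fell in both pairs, from 25283 to 11599 RPM and from 52997 to 34390 RPM. The shifts of the other sums have the direction of the minus-strand copies in both pairs. Their part in the result was not tested.

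The 7 copies most read in the Ion Proton run differed from each other in SOLiD total RNA. chr17.tRNA457 gave 28.6 RPM in the total RNA control and 283 RPM after withdrawal. chr9.tRNA593 (9:104404056-104404127, plus strand) gave 26.2 and 263 RPM. chr6.tRNA157 gave 56.8 and 274 RPM, and chr11.tRNA791 (11:97797072-97797143, plus strand) 61.8 and 289 RPM. These 4 plus-strand members of the highly read Ion Proton group all had log2 ratios above 2. Its 3 minus-strand members had smaller ones: 2.07 for chr11.tRNA1442 (27.4 and 118 RPM), 1.29 for chr11.tRNA1433 (56.1 and 139 RPM) and 0.16 for chr11.tRNA1432 (153 and 172 RPM, 95% interval 0.05 to 0.28). This order did not hold in size-selected RNA, where chr11.tRNA1442 had a log2 ratio of 3.22, above 2.94 for chr6.tRNA157 and 2.84 for chr11.tRNA791.

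chr11.tRNA1444 went the other way. It gave 657 RPM in the total RNA control, 48.2% of all cysteine reads there, and 382 RPM after withdrawal, or 8.16% of cysteine reads (log2 ratio -0.78, 95% interval -0.85 to -0.72). In size-selected RNA it gave 186 and 145 RPM (log2 ratio -0.36, 95% interval -0.50 to -0.23). In the Ion Proton libraries it held 0.847% and 0.499% of cysteine reads in the controls. Over all listed copies, 24 of 56 had a log2 ratio above 1 in total RNA, against 24.9% of features with at least 5 reads in the pair, and 27 of 56 in size-selected RNA, against 32.1%. The median log2 ratio of the copies was -0.0048 in total RNA, against 0.18 over those features, and 0.60 against 0.48 in size-selected RNA.

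**Figure D4:**
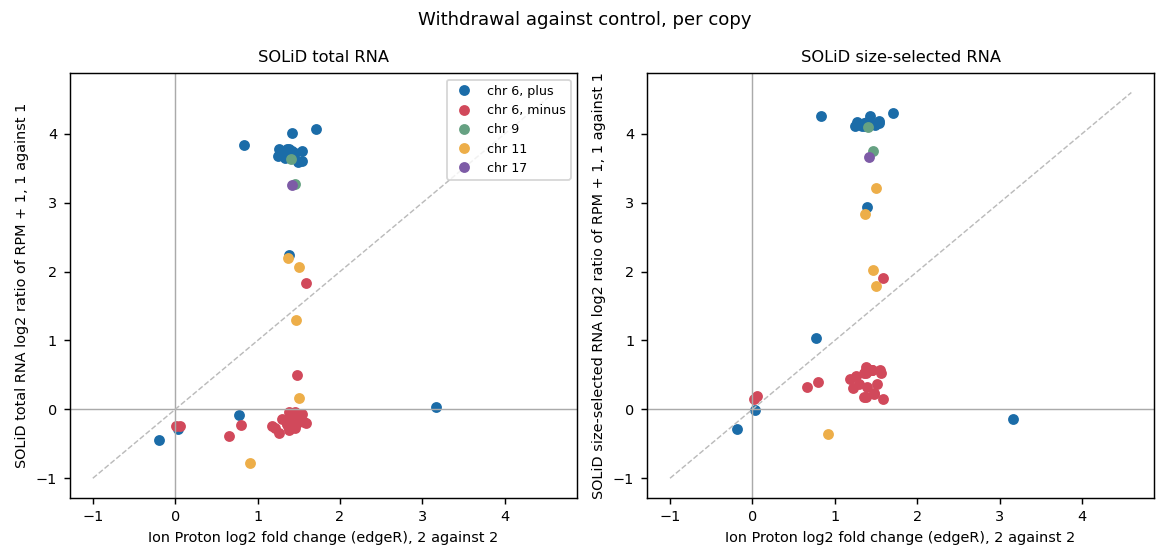
Log2 fold change of each tested copy in the Ion Proton libraries (edgeR, 2 against 2) against its log2 ratio of RPM plus 1 in SOLiD total RNA (left) and size-selected RNA (right, 1 library against 1), coloured by chromosome and by strand on chromosome 6. Most copies lie near 1.4 on the horizontal axis but spread from about -0.8 to 4.1 on the left vertical axis. The dashed line marks equal values.

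Keeping only the most-read copy gave the same picture as the sum in the Ion Proton libraries and another in SOLiD total RNA. In edgeR on a table with only the most-read copy of each tRNA family, chr11.tRNA1432 stood for cysteine with a log2 fold change of 1.68 ± 0.11 (SE, adjusted p = 0.0020). With library totals in place of TMM factors it was 1.45, the same as for this copy in the table of all copies. Its share of cysteine reads was 12.4% in both controls and 13.1% in both withdrawal libraries, a difference of 0.721 percentage points (exact permutation p = 0.333, the smallest possible). In SOLiD total RNA the most-read copy was chr11.tRNA1444, so this choice gave a log2 ratio of -0.78 where the sum gave 1.78. In size-selected RNA the copy most read over the pair was chr11.tRNA791, with 80.1 and 580 RPM and a log2 ratio of 2.84 (95% interval 2.74 to 2.98). There chr11.tRNA1444 led in the control and chr17.tRNA457 after withdrawal, with log2 ratios of -0.36 and 3.67.

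The 4 Ion Proton and 2 SOLiD total RNA libraries were then fitted together by limma on log2 of CPM or RPM plus 1, with treatment and run. The summed family rose by 1.504 ± 0.16 on the log2 scale (SE, adjusted p = 0.00291). Scaled to nuclear tRNA reads, the value was 0.30 (adjusted p = 0.390, limma). In the fit with a single copy per tRNA family, the copy of highest mean log2 level over the libraries stood for cysteine. This copy, chr11.tRNA1432, had 1.01 ± 0.28 (SE) and did not pass the test (adjusted p = 0.0578, limma). More reads over these libraries fell on chr11.tRNA1444, which gave 0.25 ± 0.39 in the fit of all copies (SE, adjusted p = 0.667, limma). With either SOLiD library left out, chr11.tRNA1432 passed with 1.44. The run term then takes up the remaining SOLiD library, so this value comes from the Ion Proton libraries alone. Of 54 copies tested, 10 rose, against 11.6% of all features called higher, and 25 had an unadjusted p under 0.05. For this fit and those without single libraries, the share of all features at that unadjusted threshold was not counted. The 10 were 6 of the 7 highly read copies, without chr11.tRNA1432, and chr6.tRNA182, chr6.tRNA175, chr6.tRNA180 and chr6.tRNA1015. The median log2 fold change was 0.73 over the 54 copies and 0.17 over all features. This count was 0 in limma without Ion Proton control 2, withdrawal 1 or withdrawal 2, where 24 copies had an unadjusted p under 0.05. It was 44 without the SOLiD control, where the effect again comes from the Ion Proton libraries alone.

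Whether withdrawal acted differently in the runs was tested with the interaction of run and treatment in limma, in which each SOLiD condition is 1 library and is assumed to vary like the Ion Proton replicates. For the summed family the SOLiD effect exceeded the Ion Proton effect by 0.41 ± 0.14 on the log2 scale (SE, adjusted p = 0.126), which did not pass. For chr11.tRNA1432, the copy of highest mean log2 level, it was smaller by 1.28 (SE 0.19, adjusted p = 0.0190, limma). Leaving out any 1 Ion Proton library ended that call (adjusted p from 0.0953 to 0.147, limma). Copy by copy, 21 of 54 had a larger effect in SOLiD, against 21% of all features, and 2 a smaller one, against 5%.

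With libraries centred on their median these counts were 19 and 22, against 246 and 244 of all 1701 features. Scaled to nuclear tRNA reads they were 9 and 26, against 103 and 473. Without either withdrawal library of the Ion Proton run, fewer copies were called in both directions. Those fits rest on a single Ion Proton withdrawal library.

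In the main fit, the called differences went by strand. The 21 copies with a larger effect in SOLiD were 17 plus-strand copies of chromosome 6, both copies of chromosome 9, chr17.tRNA457 and chr11.tRNA791. The smaller effects belonged to chr11.tRNA1432 and chr11.tRNA1444, both on the minus strand. The 25 tested minus-strand copies of chromosome 6 had a median difference of -1.19, against 2.59 for the 21 plus-strand copies. The exceptions, none of them called, were chr11.tRNA1442 (0.63) and chr6.tRNA1015 (0.73) on the minus strand, with larger effects in SOLiD, and chr6.tRNA167, chr6.tRNA174, chr6.tRNA176 and chr6.tRNA177 on the plus strand, at -0.65 to -0.27. Of the 25 minus-strand copies, 0 were called by limma although 19 had a smaller effect in SOLiD at an unadjusted p under 0.05. The share of all features at that threshold was not counted. For these copies, edgeR on reads called 2 and limma with median centring 20. Those fits called 264 and 244 of all 1701 features smaller in SOLiD, against 85 in the main fit. Across the 54 copies tested in both runs, the Spearman correlation between the Ion Proton log2 fold change and the SOLiD total RNA log2 ratio was 0.35, a description over copies that may share reads.

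**Figure D5:**
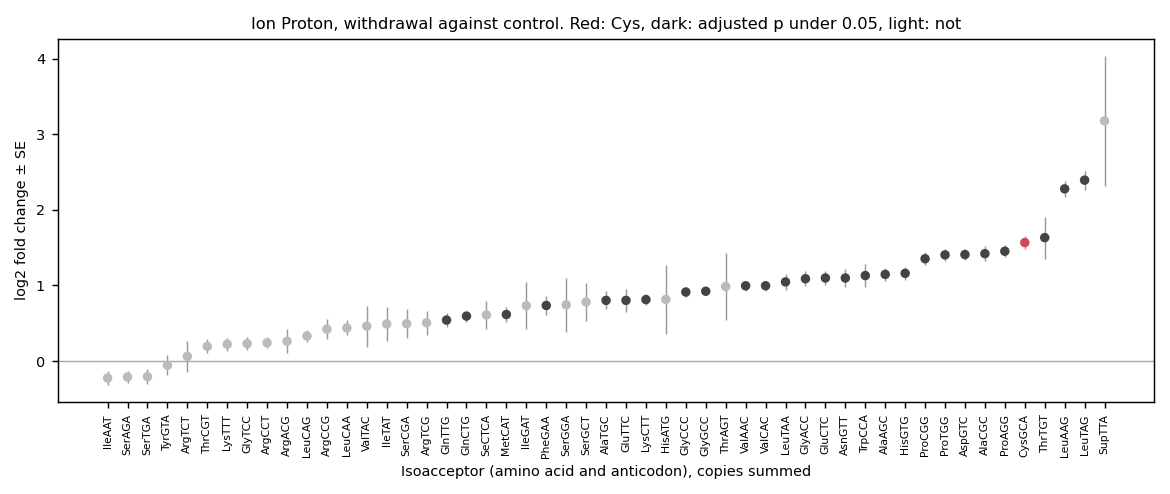
Log2 fold change (withdrawal against control, Ion Proton, edgeR) with its SE for 51 tRNA families with copies summed, ordered by value. Cysteine, in red, is the fifth highest at 1.57.

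Among the other tRNA families, cysteine was near the top in the Ion Proton run. Of 50 other families with copies summed, 26 rose and 24 did not pass (edgeR), 0 of them lower at an unadjusted p under 0.05, with a median log2 fold change of 0.79. Cysteine ranked 5 of 51 by the sum and 4 of 51 by the most-read copy. Of the families above it, 3 passed the test, LeuTAG with 2.39, LeuAAG with 2.28 and ThrTGT with 1.63. By SOLiD log2 ratio of the sums, cysteine ranked 30 of 51 in total RNA, where the median of the others was 2.01, and 3 of 51 in size-selected RNA, where it was 1.63. No other family had more than 19 copies in the Ion Proton table.

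The mitochondrial cysteine tRNA also rose in the Ion Proton run, with a larger log2 fold change than the nuclear family. mt-Tc gave 20.5 and 19.8 CPM in the controls and 123 and 128 CPM after withdrawal, with no overlap and a log2 fold change of 2.69 ± 0.10 (SE, adjusted p = 0.000689, edgeR). It gave 39.8 and 132 RPM in SOLiD total RNA and 38.3 and 110 RPM in size-selected RNA. In both runs together its log2 fold change was 2.29 ± 0.25 (SE, adjusted p = 0.00638, limma). The difference between mt-Tc and the nuclear family was not tested. Mitochondrial tRNAs as a class took 0.166% and 0.159% of reads in the Ion Proton controls and 1.06% and 1.02% after withdrawal. The rise was thus not particular to mt-Tc.

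The tRNA for selenocysteine, the selenium analogue of cysteine that is inserted at recoded stop codons, did not pass the test. Its main copy, chr7.tRNA88-SeCTCA, gave 117 and 82.4 CPM in the Ion Proton controls and 136 and 130 CPM after withdrawal, with a log2 fold change of 0.47 ± 0.18 (SE, adjusted p = 0.158, edgeR). The second copy, chr5.tRNA13-SeCTCA, gave between 2.32 and 3.83 CPM in the 4 libraries. In the SOLiD pairs the main copy went from 44.3 to 205 RPM in total RNA and from 104 to 615 RPM in size-selected RNA.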

How the data were processed

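Small RNA libraries were analysed from the tables the authors deposited. The Ion Proton table held raw read counts per feature, which the authors made with cutadapt 1.2.1, removal of reads under 15 bases, Bowtie2 2.2.4 on mm10 in local mode with up to 10 placements per read, and their own counter built on Picard. The deposited SOLiD table held reads per 1000000 (RPM), from LifeScope alignments to mm10, and each value was within 0.01 reads of a whole multiple of 1 read, so reads were recovered. Labels and methods differ on the input amount, read length and extraction of the RNA, and on whether the Ion Proton input was small RNA (labels) or total RNA (methods). Columns of no sample numbered 0. Human libraries were not used here.

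Counts were tested with edgeR 4.0.16 (quasi-likelihood, TMM, at least 5 reads summed, 2029 features, Benjamini-Hochberg) and both runs together with limma 3.58.1 on log2(value + 1). DESeq2 1.42.0, voom, other scalings and filters, a replicate block and omission of single libraries were alternatives. Families were also tested with copies summed or with the most-read copy. Over both runs, the copy of highest mean log2 level was taken in place of the most-read copy. Shares were compared by exact two-sided permutation tests. Intervals are 95% and cover counting error only.

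Copies named are the most-read of each chromosome, the 10 most read in each table, the largest changes among copies averaging 10 CPM or more, and copies of opposite direction in the runs. Further copies were named after their values were seen. The copies, lists and tests were chosen with earlier results of these data known.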

Additional observations from a re-analysis of the deposited data

Results flagged for a closer look

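The withdrawal effect differed between the SOLiD total RNA and Ion Proton libraries for 9 of the 12 copies named by the rule, by the interaction of run and treatment (limma, adjusted p under 0.05, 1 SOLiD library a side). Over all features, 443 of 1701 were called. The rule picked copies partly by their level in each run, which this test also uses, so the count depends on the rule. On the log2 scale, SOLiD minus Ion Proton, the difference was -1.28 for chr11.tRNA1432-CysGCA and -1.54 for chr11.tRNA1444-CysGCA. The former was -1.28 also when it stood for the family as its copy of highest mean log2 level. It was 0.90 for chr11.tRNA791-CysGCA and 0.93 for chr6.tRNA157-CysGCA. It was 1.89 for chr9.tRNA593-CysGCA, 1.91 for chr17.tRNA457-CysGCA and 2.52 for chr9.tRNA592-CysGCA. The widest differences were 2.70 for chr6.tRNA182-CysGCA and 3.70 for chr6.tRNA170-CysGCA. The latter had at most 2 reads in any Ion Proton library, so its Ion Proton side rests on the pseudocount and is no measured effect. The 2 negative values belong to minus-strand copies and the 7 positive values to plus-strand copies. Library preparation, sequencer and aligner differed between the runs and cannot be told apart here.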

How the results depend on the processing

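Of the Ion Proton results, the number of cysteine copies called (44) became 8 with DESeq2, 9 with library sizes set to nuclear tRNA reads and 13 with the replicate block, and 8 to 26 without single libraries. The replicate block also ended the call of the summed family (1.57, adjusted p = 0.0693, edgeR) and left that of the most-read copy. Replicate numbers share only a number: replicate 1 minus 2 in the controls correlated with that after withdrawal at 0.0056 over 852 features.

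With both runs, copies called (10) became 21 with median centring, 2 scaled to nuclear tRNA reads, 25 with voom and 23 with edgeR on reads, and 0 to 44 without single libraries. Where a SOLiD library was left out, the effect of withdrawal comes from the Ion Proton libraries alone. Scaled to nuclear tRNA reads, the summed family gave 0.30 (not called) and the copy of highest mean log2 level -0.19. Without single libraries that copy gave 0.87 to 1.44. The difference between runs of the summed family was -0.86 scaled to nuclear tRNA reads and -0.17 with edgeR on reads. That of the copy of highest mean log2 level was -1.32 to -1.24, not called, without single libraries. For single copies, added after the data were seen, differences called (23) became 41 with median centring, 35 scaled to nuclear tRNA reads and 3 to 20 without single libraries.

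In SOLiD total RNA, centring on the median of features gave 1.35 for the sum and -1.21 for the most-read copy, and scaling to nuclear tRNA reads gave -0.27 and -2.83. In size-selected RNA these were 2.27 and 1.94, then 0.94 and 0.63.

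In the Ion Proton run, chr6.tRNA174-CysGCA turned to -0.086 with DESeq2, -0.020 with total counts, -0.80 with nuclear tRNA reads and -0.017 with voom, and lay between -0.053 and 0.11 without single libraries. chr6.tRNA170-CysGCA gave -0.040 without control 2, the only omission that left it 5 reads. With both runs, chr11.tRNA1444-CysGCA turned to -0.061 with median centring, -0.87 with nuclear tRNA reads, -0.23 with voom and -0.083 with edgeR, and went from -0.058 to 0.76 without single libraries. There, chr11.tRNA1432-CysGCA turned to -0.19 with nuclear tRNA reads. The cause was not tested. Counting 1 copy of each identical sequence was not run. Low copies rest on few Ion Proton reads, and the SOLiD pairs have no replicates.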
